A study of Drosophila melanogaster with 2 samples.

Results

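The Mediator subunit genes of Drosophila melanogaster were examined for peaks of Bigmax at their promoters in whole embryos. They were chosen by name, as the protein-coding genes whose symbol is MED followed by a digit together with kto, skd, CycC and Cdk8, which gave 29 of the 13945 protein-coding genes on the main chromosome arms. Mediator is the large complex that bridges transcription factors bound to DNA and RNA polymerase II at the promoter. Its head module contacts the polymerase, its middle module links head and tail, its tail module receives many activators, and MED14 runs through the complex as a scaffold. A separable kinase module, made in flies of Cdk8, its cyclin CycC, kto (the MED12 counterpart) and skd (the MED13 counterpart), binds reversibly and can block the polymerase. Bigmax, the fly counterpart of Mlx, is the dimerisation partner of the sugar-sensing factor Mondo, and the pair is known for binding E-box elements such as CACGTG.

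The data were 2 chromatin immunoprecipitation libraries in a single group. Each came from whole embryos of mixed sex, 0 to 24 h old, of a transgenic line that stably expressed Bigmax with GFP at its C terminus. The labels call them biological replicates and number them 3 and 4. All embryos carried the fusion protein, so there was no untagged or wild-type group, and a whole embryo mixes all cell types and stages. The antibody label reads bigmax, whereas the description text calls each library an input control. The files were treated as immunoprecipitation peak calls because the deposited notes describe peaks called relative to a control alignment of its own, not analysed here. Read counts and hence depth are unknown, and with 1 group no test between conditions exists. All shares below are therefore descriptions, set beside the same share over all protein-coding genes.

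The authors' files hold 30000 peaks for replicate 3, 30000 for replicate 4 and 30000 for the replicates pooled, plus a list of 1949 reproducible peaks thresholded by the irreproducible discovery rate. Those 1949 are the strongest peaks of the pooled list. The pooled list is labelled as peaks and background, made as input for that threshold. A promoter peak in it is thus an entry of a relaxed list and need not be a bound site. Each peak carries a signal value in the peak caller's units and a summit, the base where the signal is highest. The signal ran between 111 and 6951 in the reproducible list with a median of 163, and the median was 35.9 in the pooled list. Signals were compared only within a list, except in a limit on medians described at the end. Lists were compared by rank, where rank 1 is the strongest peak. A gene was given a promoter peak when a summit lay within 500 bp of any of its annotated transcript starts, and its value was the highest such signal.

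Of the 29 Mediator genes, 3 had a reproducible promoter peak, a share of 10.3%, against 11.2% of all genes. These 3 were CycC of the kinase module and MED6 and MED30 of the head. In the pooled list, which includes background, 22 of 29 (75.9%) had a promoter peak, against 56.7% of all genes. The deposited −log10 q-value of these members' strongest pooled summits ran between 0.275 (MED15) and 3.64 (CycC among others). In replicate 3 there were 18 (62.1%), against 54.7% of all genes, and in replicate 4 there were 22 (75.9%), against 55.1%. Both replicate lists held 17 of the members (58.6%), against 45.4% of all genes. The members' share was thus above that of all genes in the relaxed lists and close to it in the reproducible list, and neither difference was tested. With each summit given only to the gene with the nearest start, the pooled direction turned, to 41.4% of the members against 49.0% of all genes. The median highest pooled signal, with genes without a peak counted as 0, was 47.5 over the members and 30.7 over all genes. Among genes with a pooled peak the medians were 59.8 for the members and 61.2 for all genes, and 11 members lay above the all-gene value and 11 below it.

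**Figure D1:**
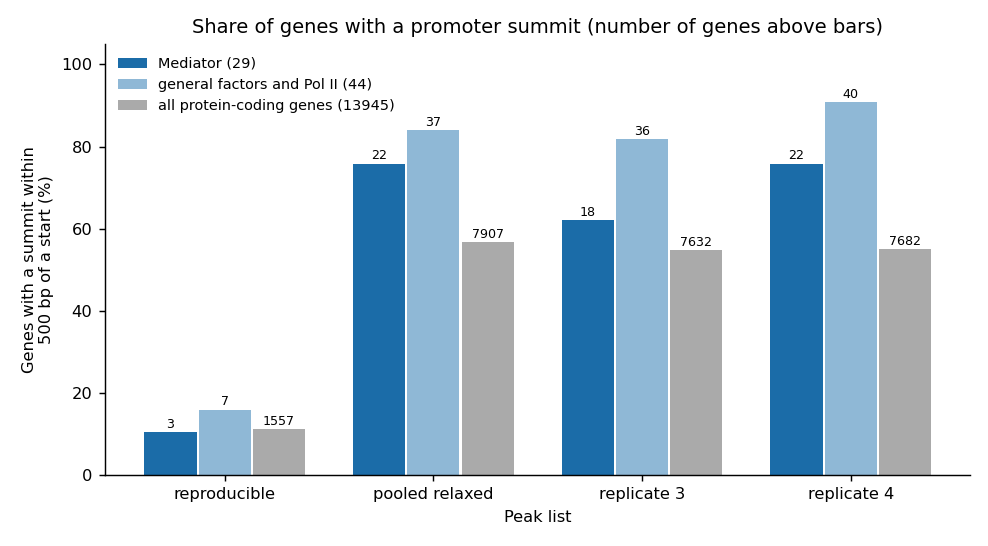
Share of genes (percent) with a summit within 500 bp of a start in each peak list, for the 29 Mediator genes, for 44 genes of general transcription factors and RNA polymerase II, and for all 13945 protein-coding genes, with the number of genes above each bar. The Mediator bars stand at 10.3% in the reproducible list and 75.9% in the pooled list, against 11.2% and 56.7% for all genes.

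CycC, the cyclin that activates Cdk8, had the strongest promoter peak of any member in every list. Its signal was 312.5 in replicate 3 (rank 189), 201.4 in replicate 4 (rank 235) and 488.8 in both the pooled and the reproducible list (rank 208). The next members in each list were MED30 in the pooled list and in replicate 4 and MED6 in replicate 3. CycC lies on the minus strand of arm 3R at 14889004 to 14890205 and has 1 annotated start. A single peak of 819 bp, at 14890086 to 14890904, holds its summits. The same interval has a further reproducible summit with a signal of 114.7 (rank 1827), outside the window. That one lay 542 bp upstream of CycC, in a coding exon of the neighbouring gene UQCR-C1. The strongest summit, at 14890296, was 91 bp upstream of the CycC start, and a summit with a signal of 458.5 (rank 227) lay 334 bp upstream. Replicate 3 likewise had summits 77 bp and 334 bp upstream, the nearer one stronger, whereas replicate 4 had a single summit, 291 bp upstream and between those of replicate 3. UQCR-C1, a core subunit of mitochondrial complex III, starts 26 bp away on the opposite strand, and the pooled summit fell in its 5' UTR, 65 bp from its start. The peak therefore cannot be assigned to one of the genes by position. The 30 bases around the strongest pooled summit of CycC are shown on the minus strand, that of CycC (dm6, chr3R:14890281-14890310), with the summit base in capitals.
CycC: ctttttcgtctgtgGccgcggcgctgatga

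MED30, a head subunit of animal Mediator, had a signal of 73.3 in replicate 3 (rank 1554), 73.3 in replicate 4 (rank 1093) and 147.4 in the pooled and reproducible lists (rank 1157). Both replicates thus placed it within their 1949 strongest peaks. Its summits lay 204 bp upstream of the start in replicate 3 and in the pooled list and 185 bp upstream in replicate 4. The gene spans 652987 to 654089 on the minus strand of arm 3L, and the pooled summit at 654293 was in the intergenic stretch between MED30 and Rev1, a translesion DNA polymerase gene on the opposite strand. It was 70 bp from the Rev1 start, nearer than to MED30. The 101 bases around this summit are shown on the minus strand, that of MED30 (dm6, chr3L:654243-654343), with the summit base in capitals, because none of the motifs described later occurs in them.
MED30: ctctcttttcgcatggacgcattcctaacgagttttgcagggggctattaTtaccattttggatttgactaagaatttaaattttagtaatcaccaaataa

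MED6, one of the most conserved head subunits, had a signal of 105.5 in replicate 3 (rank 808), 41.0 in replicate 4 (rank 3562) and 145.5 in the pooled and reproducible lists (rank 1186). It was within the 1949 strongest peaks of replicate 3 and outside those of replicate 4. MED6 spans 9766031 to 9768984 on the minus strand of arm 3R and has 5 annotated starts. The pooled summit at 9767815 sat on one of these starts, in the 5' UTR of MED6, and 19 bp from the start of Naa80, an N-terminal acetyltransferase gene on the opposite strand. The replicate summits were 24 bp upstream of that start in replicate 3 and 1 bp upstream in replicate 4. When only the outermost start of the gene model was used, MED6 had no reproducible promoter peak. The 30 bases around the pooled summit are shown on the minus strand, that of MED6 (dm6, chr3R:9767800-9767829), with the summit base in capitals.
MED6: ctcgcgaagaacgtAcactgtccaacacgg

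**Figure D2:**
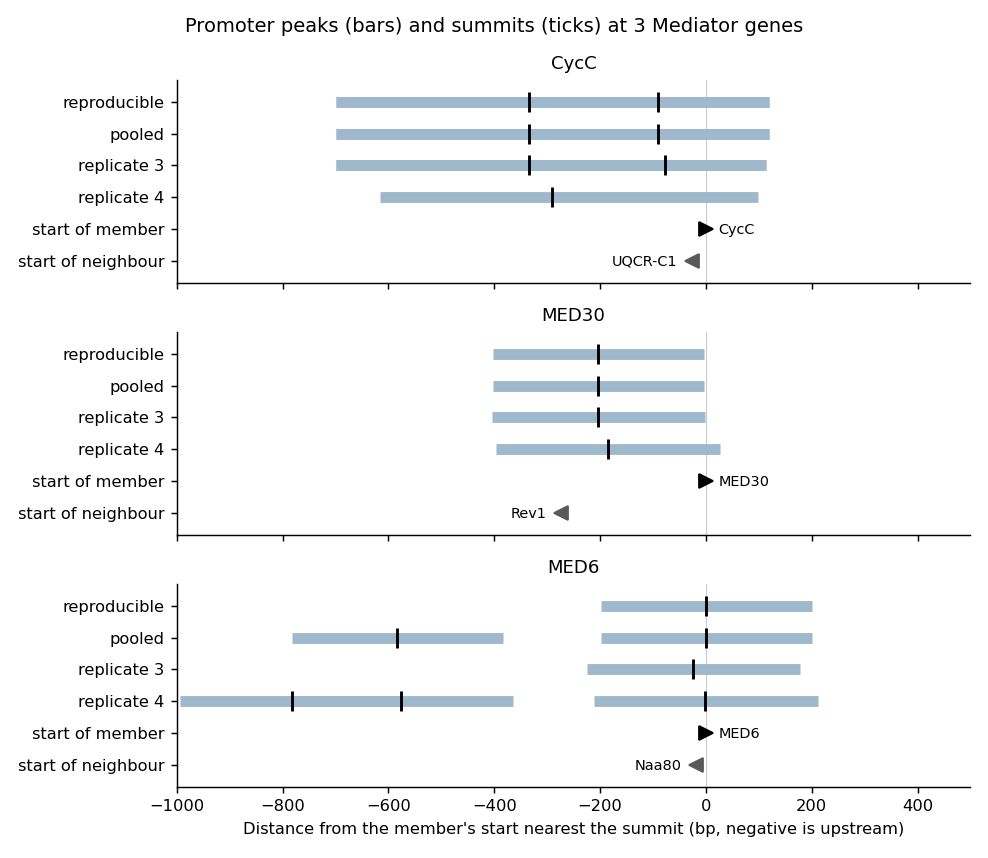
Peak intervals (bars) and summits (ticks) in the reproducible, pooled, replicate 3 and replicate 4 lists at CycC, MED30 and MED6, by distance in bp from the start of the member nearest the strongest summit (negative is upstream), with the starts of the member and of the neighbouring gene as arrowheads. At CycC the pooled summits within 500 bp lie 91 and 334 bp upstream and the replicate 4 summit 291 bp upstream, while at MED30 all summits lie 185 to 204 bp upstream.

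MED19 and MED27 came next and stood just outside the reproducible list, whose lowest signal was 111. MED19, a middle subunit in most accounts, had 37.3 in replicate 3 (rank 5765), 70.4 in replicate 4 (rank 1188) and 107.5 in the pooled list (rank 2082). It was the member that replicate 4 placed highest after CycC and MED30, whereas replicate 3 ranked it below MED4 and MED28. MED27 had 61.4 in replicate 3 (rank 2203), 46.0 in replicate 4 (rank 2801) and 102.5 in the pooled list (rank 2313). The MED19 summit lay 107 bp downstream of its start in its own 5' UTR, with no other gene start within 500 bp, whereas the MED27 summit was intergenic, 152 bp upstream of MED27 and 126 bp from the oppositely oriented elm. The pooled summits of both are shown on the strand of the gene, minus for MED19 (dm6, chr3L:17846379-17846408) and plus for MED27 (dm6, chr3R:5654937-5655037), with the summit base in capitals, as the strongest summits that missed the reproducible list.
MED19: tcagttttcgaccaGaaaagagtcagccga
MED27: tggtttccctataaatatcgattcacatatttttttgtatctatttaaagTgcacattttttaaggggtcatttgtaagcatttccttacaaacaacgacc

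Other middle and head subunits followed. MED9 had 58.3 in replicate 3 (rank 2434), 33.3 in replicate 4 (rank 5402) and 86.6 in the pooled list (rank 3198), at a summit shared with CG42518 and with Nup75, a nuclear pore gene. A start of CG42518 is on the same base and strand as the MED9 start. MED31, a small and highly conserved middle subunit, had 33.9 in replicate 3 (rank 6961), 45.6 in replicate 4 (rank 2855) and 83.7 in the pooled list (rank 3415), 11 bp from the start of CG9775 and 114 bp from that of slx1. The slx1 start is the same base and strand as the MED31 start, so position cannot separate these genes. MED17, which holds the head together, had 47.4 in replicate 3 (rank 3676), 22.2 in replicate 4 (rank 11424) and 78.6 in the pooled list (rank 3827). Its summit lay 285 bp upstream and only 80 bp from CG12321, and within 250 bp of MED17 itself the highest pooled signal was 30.1. MED31 ranked higher in replicate 4, and MED9 and MED17 ranked higher in replicate 3.

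In the kinase module, skd had 43.9 in replicate 3 (rank 4247), 44.7 in replicate 4 (rank 2985) and 70.6 in the pooled list (rank 4626). The pooled summit lay 190 bp downstream of its start in its own 5' UTR, and the replicate summits were 790 bp apart, near different starts of skd. Cdk8, the kinase itself, had a pooled signal of 29.3 (rank 21680) in its own coding exon, a replicate 4 signal of 20.6 (rank 13173) and no promoter summit in replicate 3. For kto no list held a promoter summit. The 4 genes of this module therefore ran between no peak and the strongest peak of the complex.

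The remaining members with a pooled promoter peak had signals between 24.6 and 70.3. In the head these were MED20 (61.7), MED28 (56.9), MED18 (35.2) and MED22 (30.9). In the middle they were MED4 (70.3), MED10 (47.5) and MED1 (28.0). In the tail they were MED25 (57.8), MED16 (48.2), MED23 (43.2) and MED15 (24.6), and the scaffold MED14 had 40.2. MED1 and MED15 appeared in neither replicate list, and MED15, at rank 28790 of 30000 pooled peaks, was the weakest of the members with a pooled peak. At MED28 both replicates put the summit on the same base, 17 bp upstream of the start.

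No pooled promoter summit was found for MED7, MED8, MED11, MED21, MED24, MED26 and kto. MED11, MED21, MED24 and kto had none in any list. MED7 had 28.3 in replicate 3 (rank 9707) and 15.2 in replicate 4 (rank 22378), and MED8 (30.4, rank 6402) and MED26 (29.7, rank 6703) appeared in replicate 4 alone. Each relaxed list ends at 30000 peaks, so absence says only that no summit of that list fell within 500 bp of a start. For MED7 and MED8 the nearest pooled summits were in the list but lay 725 bp (43.8) and 887 bp (61.2) from a start. The lowest pooled signal was 24.0.

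**Figure D3:**
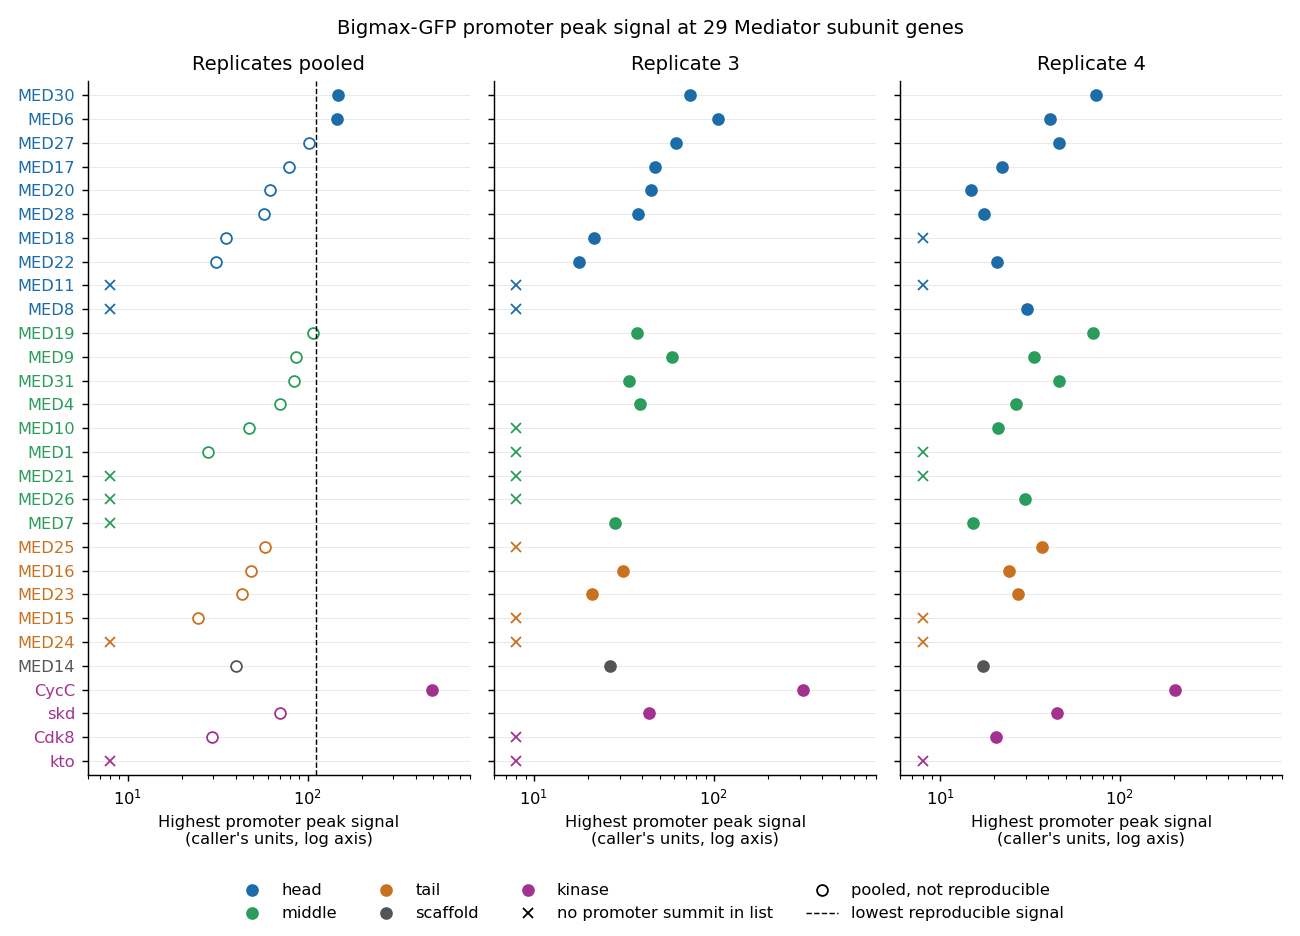
Highest promoter signal of each of the 29 Mediator genes (caller's units, log axis) in the pooled, replicate 3 and replicate 4 lists, grouped and coloured by module. Filled circles in the pooled panel are reproducible peaks, crosses mark genes without a promoter summit in that list, and the dashed line is the lowest reproducible signal, 111. CycC stands alone at 488.8, and MED30 and MED6 are the other 2 genes right of the line.

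The modules overlapped in signal. In the head 8 of 10 genes had a pooled promoter peak and 2 a reproducible one, with pooled signals of 30.9 to 147 and a median of 59.3 when genes without a peak count as 0. In the middle these were 6 of 9 and 0, with signals of 28.0 to 108 and a median of 47.5. In the tail they were 4 of 5 and 0, with signals of 24.6 to 57.8 and a median of 43.2. In the kinase module they were 3 of 4 and 1, with signals of 29.3 to 489 and a median of 49.9. Over all genes the shares were 56.7% pooled and 11.2% reproducible. The all-gene medians were 30.7 in the pooled list, 18.0 in replicate 3 and 15.2 in replicate 4. The ranges of all 4 modules overlapped between 30.9 and 57.8. The head had the highest median here but not with a window of 250 bp, where the medians were 46.1 in the head, 47.5 in the middle, 31.3 in the tail and 49.9 in the kinase module. The order of the modules also differed between replicates. The head led with a median of 41.4 in replicate 3, where the tail had 0, whereas in replicate 4 the kinase module led with 32.6 and the head, with 21.5, was last. Accounts of Mediator differ on where MED14, MED19, MED26, MED27, MED28 and MED30 belong. Under the other assignment, which moves MED14, MED27, MED28 and MED30 to the tail, MED19 to the head and MED26 out of the middle, the reproducible peak of MED30 counts for the tail, which leaves 1 in the head and 1 in the tail. The medians were then 48.5 in the head, 47.5 in the middle, 48.2 in the tail and 49.9 in the kinase module, so the head no longer led.

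Replicates 3 and 4 differed in how they ranked the members. Over the 17 members present in both lists, Spearman's correlation of the signals was 0.54, and 0.44 without CycC, against 0.69 over the 6326 genes present in both. These are descriptions across genes, which share the libraries and in part the peaks. Among those 17, 11 ranked higher in replicate 3 and 6 in replicate 4, and no all-gene split is given for comparison. The median gap between the replicates' summits was 77 bp for the members and 64 bp for all genes. Of the 1949 strongest peaks of each replicate, replicate 3 placed CycC, MED6 and MED30 there, and replicate 4 placed CycC, MED30 and MED19. CycC and MED30 were the 2 members that both replicates placed in that class.

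**Figure D4:**
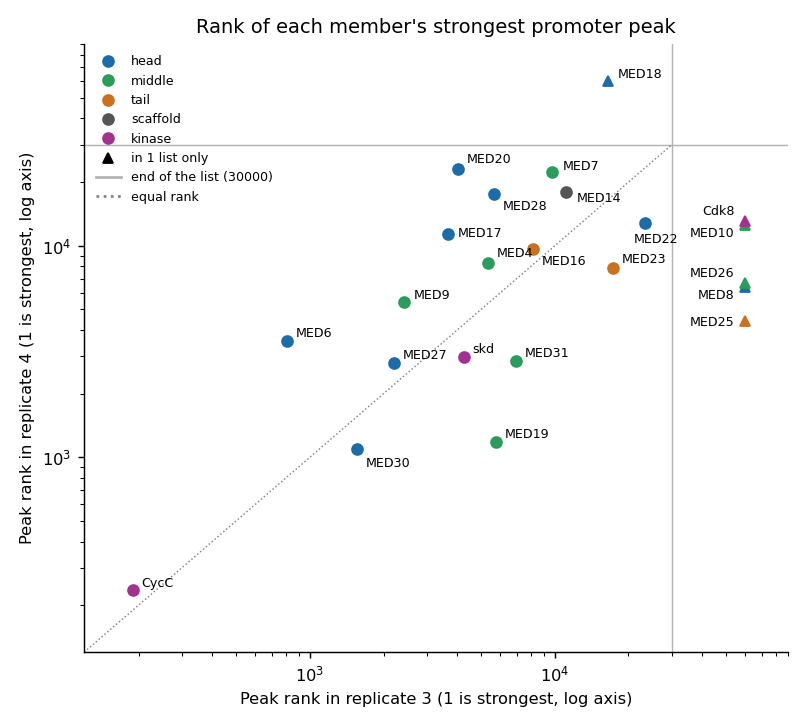
Rank of each member's strongest promoter peak in replicate 3 (x, log axis) and replicate 4 (y, log axis), where 1 is the strongest, coloured by module. Triangles beyond the grey lines are members in 1 list only (MED18 in replicate 3 and 5 members in replicate 4), the dotted line marks equal rank, and CycC, at ranks 189 and 235, is far from the other members.

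Most of the promoter peaks at Mediator genes were shared with a neighbouring gene. For 16 of the 22 members with a pooled promoter peak (72.7%), another protein-coding gene also started within 500 bp of the summit, against 39.4% of the 7907 genes with such a peak. In 15 of the 16 the nearest neighbour was on the opposite strand, and in 12 of the 16 the summit was nearer to the neighbour than to the Mediator gene. All 8 head genes and all 4 tail genes with a pooled peak shared it, against 3 of 6 in the middle and 1 of 3 in the kinase module. Neighbours not named above were Trf, the TBP-related factor, 1 bp from the MED20 summit, PDCD-5 at MED10, Gcna at MED18, CG43867 and Lztr1 at MED22, CG4553 at MED28, CG11170 at MED16, Gmer at MED23, Hs6st, a heparan sulfate sulfotransferase, at MED25, and CG4297 at MED15. When each summit was given only to the gene with the nearest start, 12 of 29 members (41.4%) kept a pooled promoter peak, a share now below the 49.0% of all genes, and 1 of 29 (3.45%), MED6, kept a reproducible one, against 8.68%.

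Many Mediator genes have a close neighbour in the annotation itself. Another protein-coding gene started within 500 bp of a start for 19 of 29 members (65.5%), against 30.9% of all genes. This was not particular to Mediator. Of the 44 genes of general transcription factors and RNA polymerase II, 26 (59.1%) had such a neighbour. Among the 19 members, 17 had a pooled promoter peak (89.5%), against 79.1% of the 4309 genes with such a neighbour, and 3 a reproducible one (15.8%), against 19.8%. Among the 10 members without a close neighbour, 5 had a pooled peak (50%), against 46.7% of 9636 genes, and none had a reproducible one, against 7.30%. In the replicate lists the members without a close neighbour were below all such genes. They had 2 (20%) in replicate 3, against 45.0%, and 4 (40%) in replicate 4, against 44.8%. Members with a close neighbour were above, at 84.2% against 76.6% in replicate 3 and 94.7% against 78.1% in replicate 4. The median signal of those with a pooled peak was 70.6 for members with a close neighbour and 29.3 for members without one, against 73.1 and 52.9 for all genes. Its part in the higher pooled share of the members was not tested.

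**Figure D5:**
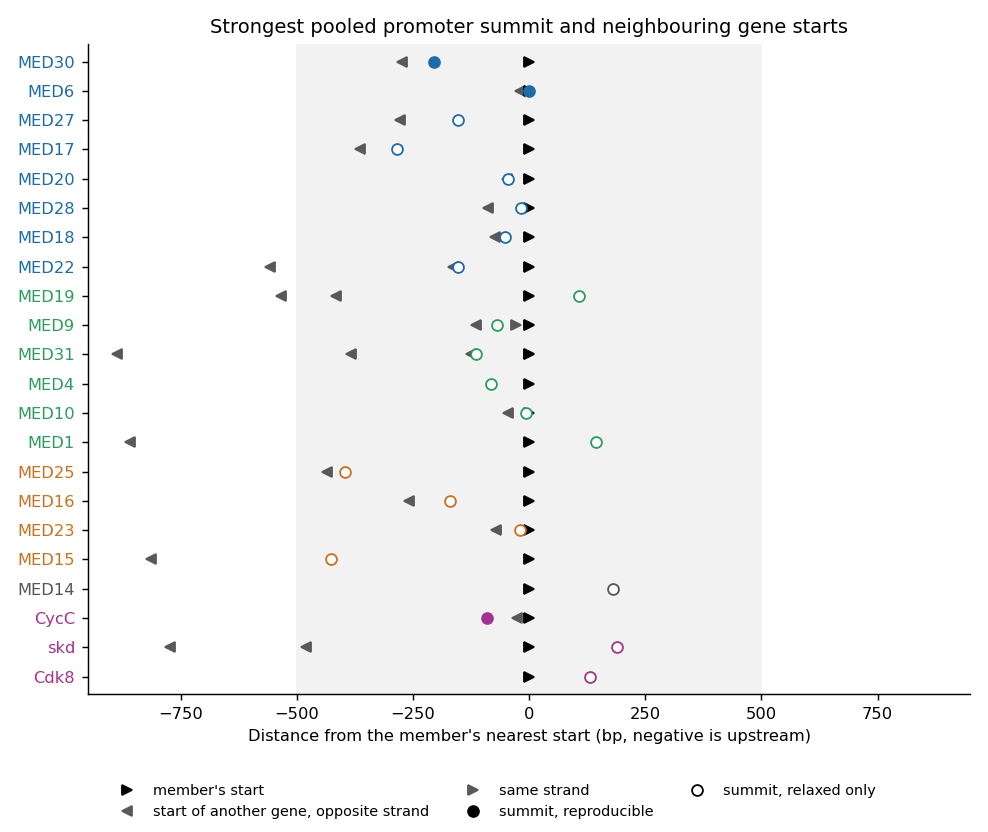
Position of the strongest pooled promoter summit (circles, filled when reproducible) relative to the nearest start of each of the 22 members, in bp with upstream negative, and the starts of neighbouring genes (grey arrowheads pointing along their strand). The shaded band is the 500 bp window, and the head genes in the top rows all have an oppositely oriented neighbour within it, with 16 of the 22 summits upstream of the member's start.

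The summits of 16 members lay upstream of the start (72.7%), against 62.4% of all genes with a pooled promoter peak, 5 lay downstream and that of MED6 on the start. The median distance was 122.5 bp for the members and 99 bp for all genes, and 9 members (40.9%) had the summit within 100 bp, against 50.4%. Median GC content of the 101 bases around the summit was 39.6% for the members and 44.6% for all genes. Median gene length was 1330 bp for the members and 2166 bp for all genes, and 24 of 29 members (82.8%) had a single annotated start, against 73.5%. Near the edge of the window, the MED25 summit (397 bp upstream) and the MED15 summit (427 bp upstream) were just inside. The nearest pooled summits of kto (508 bp, signal 25.3), MED7 (725 bp, 43.8) and MED8 (887 bp, 61.2) were outside.

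The motifs searched on both strands were CACGTG, the E-box bound by Mondo and Bigmax, AGGTTA, frequent at the reproducible summits of this series, and CGATAG, together with the core promoter elements TATCGATA (the DNA replication-related element, which overlaps CGATAG by 5 letters where G follows it) and GGTCACAC. Within 50 bp of the summit CACGTG was found at 0 of 22 members, against 1.77% of 9440 pooled promoter summits, and AGGTTA at 0 of 22, against 4.61%. CGATAG was found at MED9 and MED18, against 8.86% of promoter summits, TATCGATA at MED18 and MED28, against 3.34%, and GGTCACAC at MED23, against 3.43%. None of the 5 was found at CycC, MED6 or MED30, whereas AGGTTA occurred at 15.4%, CGATAG at 13.1% and CACGTG at 2.79% of the 1289 reproducible promoter summits. Within 100 bp, CACGTG occurred once, with its middle 82 bp from the MED17 summit, against 3.49% of pooled promoter summits. MED18 holds overlapping matches to TATCGATA and CGATAG, in capitals in its 30 bases on the plus strand (dm6, chrX:1865843-1865872).
MED18: tTATCGATAGactatttgattttccggcat

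The general transcription factors and RNA polymerase II itself are the partners of Mediator at promoters. Mediator had 3 of 29 genes (10.3%) with a reproducible promoter peak and 22 (75.9%) with a pooled one. The 44 genes of these partners had 7 (15.9%) and 37 (84.1%), and over all genes the shares were 11.2% and 56.7%. The 7 were Taf4 (161) and Taf1 (131) of TFIID, TfIIA-S (178), Ssl1 (415) and Tfb1 (124) of TFIIH, and the polymerase subunit genes Polr2F (211) and Polr2B (112). CycC, at 489, was above all of them, and MED30 and MED6 were below Taf4. The Ssl1 peak was shared with Chro and the Polr2B peak with 140up, so 2 of the 7 were shared, against 3 of 3 in Mediator. These are few genes. Of the 37 partner genes with a pooled peak, 19 (51.4%) shared it. In Mediator it was 16 of 22 (72.7%), and over all genes 39.4%. The Mediator subunit gene ix, the MED29 counterpart, has a symbol outside the naming rule, and it had no pooled summit and a replicate 3 signal of 15.7 (rank 29658).

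Stronger peaks lay near 3 members but outside the promoter window. For MED15 a reproducible peak of 264.5 (rank 452; replicate 3 rank 470, replicate 4 rank 457) had its summit 634 bp upstream, 179 bp from the start of CG4297. For MED19 one of 246.8 (rank 502; replicate 3 rank 439, replicate 4 rank 713) lay 774 bp upstream in an intron of CG7430, 239 bp from its start. For skd one of 143.6 (rank 1209; replicate 3 rank 1239, replicate 4 rank 1370) lay 620 bp upstream, 139 bp from the start of Pdss2, a coenzyme Q synthesis gene. All 3 exceeded the gene's own promoter signal, and all 3 were nearer to the neighbour.

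Inside the long skd gene, a reproducible peak had its summit in an intron, 17041 bp from the nearest skd start and 16716 bp from that of CG12984. The peak spans 21009036 to 21009292 on arm 3L. Its signal was 262.5 in replicate 3 (rank 240), 180.3 in replicate 4 (rank 272) and 432.0 in the pooled list (rank 246). It was about as strong in rank as the CycC promoter peak, and both replicates placed it alike. A weaker reproducible peak of 118.6 (rank 1700) lay in the same region, 16117 bp from the start. The 101 bases around the stronger intronic summit of skd (dm6, chr3L:21009113-21009213, minus strand) hold AGGTTA, read here as its reverse complement, 6 bp from the summit and CGATAG 20 bp from it, and those around the upstream summit near MED19 (dm6, chr3L:17847225-17847325, minus strand) hold AGGTTA 24 bp from the summit. They are shown, with these matches in capitals, because no promoter summit of a member held AGGTTA. Distances of these matches run from the summit to the nearest base of the motif.
skd intron: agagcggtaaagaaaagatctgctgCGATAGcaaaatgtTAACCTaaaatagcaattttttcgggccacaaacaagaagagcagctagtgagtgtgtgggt
MED19 upstream: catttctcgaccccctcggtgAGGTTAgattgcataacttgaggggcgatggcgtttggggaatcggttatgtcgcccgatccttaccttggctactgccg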

How the data were processed

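Peak lists of 2 libraries were used, 1 per replicate, with their pooled and reproducible lists. The authors' steps, per the notes deposited with the files, were alignment to dm6, relaxed peak calling per replicate and on pooled replicates against a control alignment, and thresholding by the irreproducible discovery rate. The peak caller is not given in the sources used here. The deposited signal per peak is the authors' own value in the caller's units. It was used only within a list, except in the limit on medians described below. The deposited −log10 q-value was 3.64 for CycC, MED30, MED6 and MED19 alike, so peaks were ranked by signal. The summit is the peak's start plus the offset in the file.

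Genes, starts and sequence came from the Release 6 assembly (dm6) with Ensembl release 115 gene models (version 6.54). Summits within 500 bp of any start of a protein-coding gene were assigned to it. All 45 names of the comparison lists were matched, 1 by a synonym. Assignment was tested on simulated peaks. No test was run, since 1 group of 2 libraries allows none. Full values were given for members with a reproducible promoter peak and the 6 next by pooled signal. Alternatives changed the window, the starts, the assignment, the lists, the modules and the motif window. TATCGATA, GGTCACAC and the split by neighbours were added after seeing the data, and the members and lists were chosen with earlier results of these data known. Python 3.11.15, numpy 2.4.6, scipy 1.17.1 and matplotlib 3.10.9 were used.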

Additional observations from a re-analysis of the deposited data

How the results depend on the processing

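The count of 3 members with a reproducible promoter peak was 6 with a window of 1000 bp, which added MED15, MED19 and skd. That was 20.7% of the members, against 13.4% of all genes. The count was 5 when any base of a peak could lie in the window, 17.2% against 12.2%. In both settings the members' share was above that of all genes. It was below with the nearest start only (1 member, 3.45% against 8.68%) and in the stronger part of the list (CycC, 3.45% against 5.74%). Leaving out a replicate gave 3 to 3, but without replicate 3 MED6 was lost and MED19 gained. The pooled count of 22 was 12 with the nearest start only, 41.4% of the members against 49.0% of all genes, which turned the direction. It was 18 to 22 in the replicate lists taken singly, as given above. The members' median of 47.5 was 59.8 over members with a peak only. Reproducible counts of the modules under the other assignment were 1 in the head and 1 in the tail. With 1000 bp they were 1 in the middle, 1 in the tail and 2 in the kinase module, whose median was then 86.4. Without a replicate they were 1 to 2 in the head and 0 to 1 in the middle. Medians without a replicate came from the whole list of the remaining replicate, in its own units. They were 21.5 to 41.4 for the head, 26.3 to 28.3 for the middle, 0 to 24.2 for the tail and 21.9 to 32.6 for the kinase module. With 100 bp around the summit, 1 member held CACGTG. The other 39 values of these summaries stayed within the limits of 1.5 times for counts and 1 SD of the replicate medians for medians, though the order of the module medians changed with the other assignment and with 250 bp.

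Depth is unknown, each relaxed list ends at 30000 peaks, and 2 libraries of 1 group give no measure of biological spread for any gene. Presence of a promoter summit in a list depends on that end and on where the summit is placed, as well as on the signal. No paired analysis was possible because the libraries form a single group. At shared promoters the genes cannot be told apart by position.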

Other observations

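Summits inside Mediator genes but beyond 500 bp of a start numbered 20 in the pooled list, in 7 members. Of these, 13 lay in skd, which is 34621 bp long. The 2 reproducible ones were both in skd. No all-gene share is given for this count, so it is not a result about the members.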
